A study of Ciona robusta with 9 samples.

Results

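Among 15284 gene models of the ascidian Ciona robusta, 102 had few reads in control embryos and more reads with both of the plasmids that carried Brachyury (Bra). They were chosen by the values themselves. A gene was kept if its control mean was under 10 normalized counts and a construct mean was at least 10. Its mean log2 change against control also had to be at least 1 with each construct, with a change above 0 in all 6 comparisons of libraries that share a replicate number. Each log2 change was taken between a construct library and the control library of the same number, after adding 1 to both values. The levels against control and the shared direction therefore follow from the choice of genes, and are described here with no test. The rule set no limit on the difference between the constructs itself, which was tested over all genes. For the 80 members whose mean reached 10 with both, the limits on each change against control still bear on that difference. For the other 22 members, which reached 10 with 1 construct only, it is tied to the choice through the limit of 10 as well.

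The libraries were made from whole embryos at Hotta stage 19.5, 400 embryos per sample, grown at 21 °C in artificial seawater from electroporated eggs that had been dechorionated. In the Tbx6-r.b>Bra group (3 libraries) the plasmid was Tbx6-r.b>Venus-Bra, and in the Etr1>Bra group (3 libraries) it was Etr1>Venus-Bra. The control group (3 libraries) received Bra>GFP, so the 3 groups share the electroporation of a fluorescent construct. No group carried the Tbx6-r.b or the Etr1 regulatory DNA without Bra, and a difference from control cannot be credited to Bra alone. Recovered gene reads ran from 9043181 to 10399304 per library. The replicates are called biological by the submitters, with no word on separate fertilizations, and p-values can reflect only the spread between these samples. In the limma fit with the replicate number as a block, used below, that spread is pooled over genes of like level and is not the gene's own. Embryos were pooled whole, so more cells that use a gene and more RNA per cell cannot be told apart.

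Bra is the T-box transcription factor that marks the ascidian notochord, the rod of cells that stiffens the tadpole's tail. In ascidians it is expressed in notochord cells and activates genes used there. Regulatory DNA of Etr1, an RNA-binding protein gene of the nervous system, and of Tbx6-r.b, a T-box gene of the tail muscle lineage, is used to place a protein in those other tissues. The deposited tables list genes by KH ID with no names, and the supplied gene table of 21486 genes matched 0 of these IDs. The members are therefore given by ID, with no name or role. For the same reason the gene lists of notochord, muscle, nervous system and other tissues could not be counted among them.

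Of the 15284 models, 3920 had a control mean under 10, and 403 of those reached a mean of 10 with either construct. The 102 members were 2.60% of the 3920 low models. Of the 403, 33 met the part of the rule on Tbx6-r.b>Bra alone, 59 met the part on Etr1>Bra alone and 209 met neither. In the opposite direction, 1 gene met a stricter rule (control mean of at least 10, both construct means under 10, both mean log2 changes at or below −1, every change below 0). The main rule asks for a limit of 10 to be met with either construct, so the 2 counts are not alike. The 1 gene was KH.S1003.1, picked out after its values were seen, with 3.17, 4.33 and 4.66 normalized counts in Tbx6-r.b>Bra libraries, 3.13, 1.98 and 5.86 in Etr1>Bra libraries and 9.14, 14.02 and 8.41 in control libraries. A further 79 genes had a control mean of at least 10 and met the rest of the rule.

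The members were low rather than absent in control. Only KH.L73.4 and KH.C8.709 had 0 control reads, while 19 members had 1 to 3 reads over the 3 control libraries, 27 had 4 to 9, 27 had 10 to 19 and 27 had 20 or more, up to 30. In the control libraries 20, 15 and 16 members had no read, whereas every member had, as the rule requires, at least 1 read in each of the 6 construct libraries. The median member had 13.7, 25.4 and 17.7 normalized counts in Tbx6-r.b>Bra replicates 1, 2 and 3. It had 10.4, 23.3 and 41.5 in Etr1>Bra replicates, and 3.05, 2.80 and 2.80 in control replicates. All 102 members together held 2119, 3632 and 2794 reads in the Tbx6-r.b>Bra libraries. They held 1616, 3989 and 8197 in the Etr1>Bra libraries and 360, 446 and 437 in the control libraries. The control libraries were thus close to each other, and the spread lay among the construct libraries. For 92 members all 3 Tbx6-r.b>Bra libraries lay above all 3 controls, as for 4.78% of the 14574 genes with a read in that comparison. For 88 members all 3 Etr1>Bra libraries lay above all 3 controls, as for 6.91% of 14563 genes. Both counts follow from the rule.

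**Figure D1:**
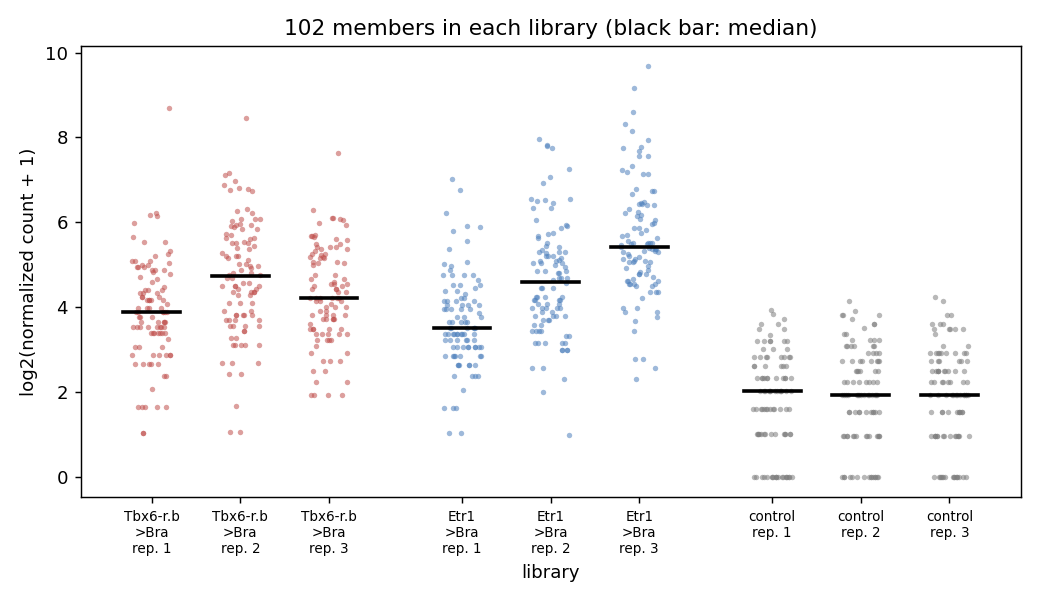
Level of each of the 102 members, as log2(normalized count + 1), in each of the 9 libraries (points), with the median of the members (black bar). The 3 control libraries have like medians, and Etr1>Bra replicate 3 has the highest, at 41.5 normalized counts against 10.4 in Etr1>Bra replicate 1.

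The size of the change covered a wide range. The mean log2 change with Tbx6-r.b>Bra had a median of 2.24 and ran from 1.001 to 6.58, and 61, 23 and 10 members reached 2, 3 and 4. For Etr1>Bra the median was 2.56, the range 1.01 to 7.33, and 72, 37 and 10 members reached 2, 3 and 4. Both comparisons use the same 3 controls, so a deviation of those libraries enters both. KH.C11.41, KH.C10.588, KH.C4.361 and KH.S489.4 had the most reads over the 6 construct libraries. Of the 102, 80 members had a mean of at least 10 with both constructs, 4 with Tbx6-r.b>Bra alone and 18 with Etr1>Bra alone. High counts were rare: a mean of at least 50 was found for 14 under Tbx6-r.b>Bra and 20 under Etr1>Bra. A mean of at least 100 was reached by 1 member under Tbx6-r.b>Bra and 10 under Etr1>Bra. These are counts per gene and not per length, so they do not rank the genes by transcript abundance.

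For the 54 members with 10 or more control reads, the pooled ratio to control ran from 1.84 to 20.3 with Tbx6-r.b>Bra (median 4.37). With Etr1>Bra it ran from 1.73 to 60.3 (median 5.05). The rule used these values, and the ratios are a description. The interval of a ratio, here and below, is the exact 95% binomial one and reflects counting error alone. For 4 members, picked out after their values were seen, the interval with Tbx6-r.b>Bra reached below 1: KH.C2.820, KH.C11.364, KH.C10.388 and KH.C11.665. They had 6, 14, 12 and 16 reads with Tbx6-r.b>Bra, against 1, 6, 5 and 9 control reads, and for them the counting depth with that construct does not separate the levels.

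The 8 members with the largest mean change over both constructs were KH.C4.361, KH.C10.588, KH.C12.313, KH.C9.63, KH.C2.478, KH.C6.188, KH.C5.653 and KH.C11.41. KH.C4.361 stood at 23.2, 66.0 and 65.2 normalized counts in Tbx6-r.b>Bra libraries, 58.4, 224 and 578 in Etr1>Bra libraries and 0, 0.935 and 0 in control libraries. Its control reads numbered 1, so the ratio to control of 162 with Tbx6-r.b>Bra has a counting interval of 28.7 to 6458. With Etr1>Bra the ratio was 913, with an interval of 163 to 36096. The groups with Bra were far above control at this gene, while the size of the fold is known only to within these wide bounds.

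KH.C10.588 had 416, 351 and 198 normalized counts in Tbx6-r.b>Bra libraries, 107, 91.2 and 160 in Etr1>Bra libraries and 2.03, 4.67 and 0.934 in control libraries. It was the only member with a mean of at least 100 in Tbx6-r.b>Bra, at 321.5 ± 112 (SD, n = 3), against 119.6 ± 36.0 in Etr1>Bra and 2.55 ± 1.92 in control. Its 3 Tbx6-r.b>Bra libraries lay above its 3 Etr1>Bra libraries, the reverse of KH.C4.361, where the groups of construct libraries overlapped.

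KH.C12.313 had 29.6, 106 and 68.0 normalized counts in Tbx6-r.b>Bra libraries, 20.8, 153 and 244 in Etr1>Bra libraries and 0, 2.80 and 0.934 in control. KH.C6.188 had 16.9, 142 and 62.4 in Tbx6-r.b>Bra libraries, 26.1, 80.3 and 220 in Etr1>Bra libraries and 0, 1.87 and 5.61 in control. In both genes the library of replicate 1 was the lowest with either construct. Replicate 2 was the highest with Tbx6-r.b>Bra and replicate 3 with Etr1>Bra.

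KH.C9.63 and KH.C2.478 were at 1 control read each. KH.C9.63 had 31.7, 58.5 and 40.1 normalized counts with Tbx6-r.b>Bra and 19.8, 48.6 and 101 with Etr1>Bra, ratios to control of 135 (counting interval 23.8 to 5367) and 179 (31.6 to 7095). KH.C2.478 had 29.6, 56.3 and 66.1 with Tbx6-r.b>Bra and 12.5, 30.7 and 84.0 with Etr1>Bra, ratios of 160 (28.3 to 6374) and 135 (23.8 to 5362). Their libraries of both constructs overlapped.

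KH.C5.653 had 28.5, 66.0 and 50.3 normalized counts in Tbx6-r.b>Bra libraries, 8.34, 16.9 and 62.5 in Etr1>Bra libraries and 1.02, 1.87 and 0 in control. Its construct libraries overlapped with each other and lay above control. KH.C11.41, with 21 control reads, averaged 55.8 ± 45.6 (SD, n = 3 each) with Tbx6-r.b>Bra, 398.5 ± 367 with Etr1>Bra and 6.89 ± 5.54 in control. KH.C11.41 had the highest mean of all members in Etr1>Bra, and its Etr1>Bra libraries at 129, 250 and 816 lay above its Tbx6-r.b>Bra libraries at 20.1, 107 and 40.1. Its control libraries stood at 13.2, 2.80 and 4.67.

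Of the members with no control read, KH.L73.4 was set against a floor of 3 control reads over the group. Against that floor it was 25.8-fold higher under Tbx6-r.b>Bra and 35.5-fold higher under Etr1>Bra. It had 9.51, 59.6 and 8.39 normalized counts with Tbx6-r.b>Bra and 5.21, 92.2 and 3.91 with Etr1>Bra. Replicate 2 was the highest with either construct. KH.C8.709, set against the same floor, was 4.95-fold higher under Tbx6-r.b>Bra and 15.3-fold higher under Etr1>Bra, on 14 and 44 reads. The floor takes in no counting error of the construct reads, so the ratios of these genes are not lower limits. KH.C8.709 had 1.06, 7.58 and 5.59 normalized counts with Tbx6-r.b>Bra and 7.30, 12.9 and 23.4 with Etr1>Bra, and these overlapped. In a further member, KH.S1233.2, picked out after its values were seen, replicate 2 also stood apart with either construct. It had 10.6, 78.0 and 3.73 normalized counts in Tbx6-r.b>Bra libraries, 6.25, 121 and 5.86 in Etr1>Bra libraries and 0, 1.87 and 0 in control. In KH.C5.439, picked out in the same way, replicate 3 was the highest in every group. It had 6.34, 11.9 and 31.7 in Tbx6-r.b>Bra libraries, 5.21, 7.93 and 57.6 in Etr1>Bra libraries and 0, 1.87 and 17.8 in control.

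**Figure D2:**
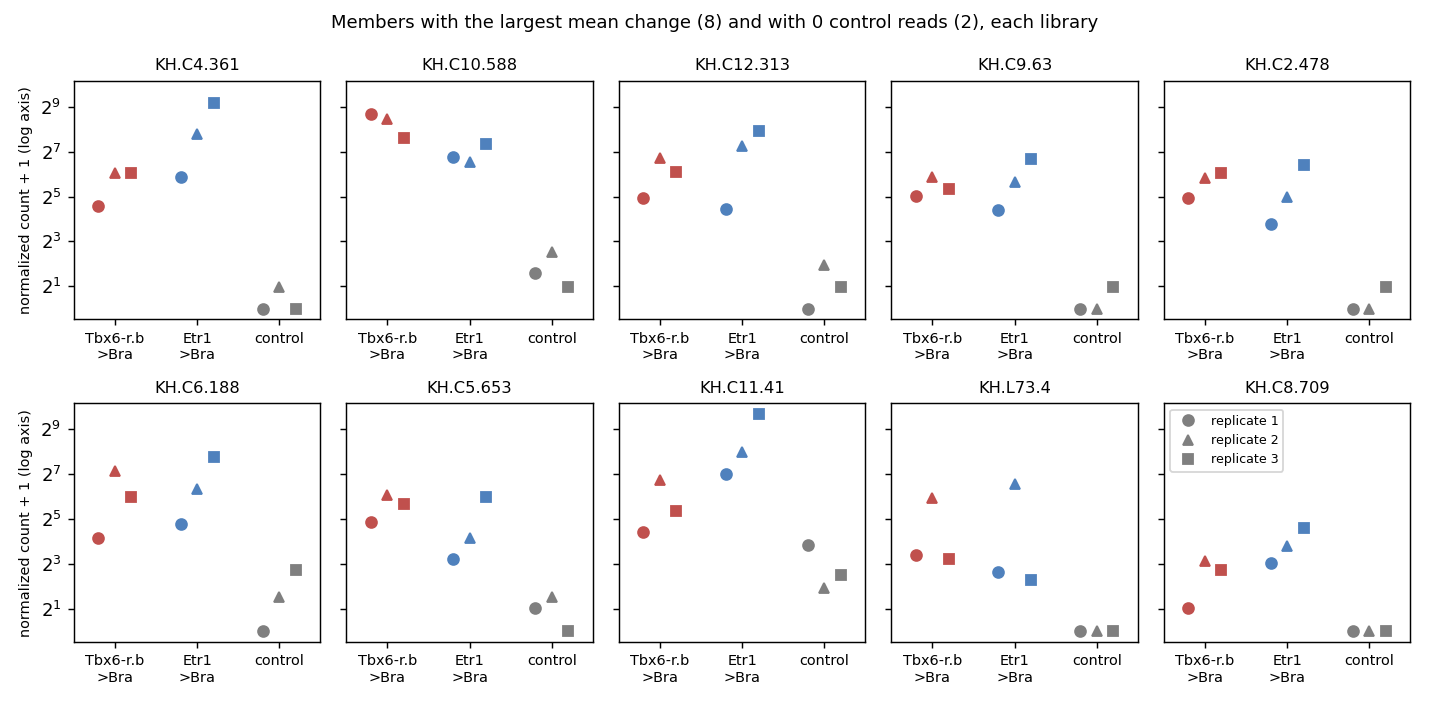
Normalized count + 1 on a log axis in each library for the 8 members with the largest mean change and the 2 with no control read. The symbols mark replicates 1, 2 and 3. All construct libraries lie above all control libraries in each panel, and replicate 2 of KH.L73.4 stands above replicates 1 and 3 with both constructs.

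The members varied more among the Etr1>Bra libraries than among the Tbx6-r.b>Bra libraries. The median coefficient of variation over 3 libraries was 41.4% under Tbx6-r.b>Bra and 71.0% under Etr1>Bra, where all 11529 genes tested had medians of 16.4% and 17.5%. The highest library was over 3 times the lowest for 37 members with Tbx6-r.b>Bra and 84 members with Etr1>Bra, with no share over all genes taken. Among Tbx6-r.b>Bra libraries, replicate 2 was the highest for 65 members (63.7%, against 34.9% of all genes tested). Replicate 1 was the lowest for 55 (53.9%, against 28.4%). Among Etr1>Bra libraries, replicate 3 was the highest for 88 members (86.3%, against 33.05% of all genes tested). Replicate 1 was the lowest for 81 (79.4%, against 37.8%) and the highest for 0 (against 35.4%). This order was not particular to the members. Of the 79 genes already expressed in control, 74.7% were highest in Tbx6-r.b>Bra replicate 2 and 97.5% in Etr1>Bra replicate 3. Replicate 2 of Tbx6-r.b>Bra and replicate 3 of Etr1>Bra were together the highest for 54 members. Among controls no library stood out, with replicates 1, 2 and 3 the highest for 36, 38 and 26 members.

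The change from the same-numbered control showed the same order. Its median over the members was 1.82, 2.69 and 2.23 in pairs 1, 2 and 3 with Tbx6-r.b>Bra, and 1.63, 2.56 and 3.70 with Etr1>Bra. Over all genes tested, the medians lay between −0.0167 and 0.00406 in these 6 comparisons. The 79 genes already expressed in control had medians of 1.29, 1.94 and 1.57 with Tbx6-r.b>Bra and 1.15, 1.84 and 2.97 with Etr1>Bra, the same order of the libraries. The part of a library's overall response in the differences at single members was not tested.

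The direct comparison asked which members differed in level between Bra under Tbx6-r.b regulatory DNA and Bra under Etr1 regulatory DNA. It used limma on log2(normalized count + 1), with Benjamini-Hochberg adjusted p under 0.05 over 11529 genes with a mean of at least 10 in the 6 construct libraries. Of the 102 members, 93 passed this filter. Without regard to the replicate numbers, 0 members and 0 genes in all (0% called) passed the test. An unadjusted limma p under 0.05 was found for 15 members and 351 genes. The edgeR quasi-likelihood test on recovered reads also called 0 members, with 18 members and 347 genes at an unadjusted p under 0.05. DESeq2 called 3 members, 0.338% of all genes being called. KH.C10.588 and KH.S803.1 were higher with Tbx6-r.b>Bra (DESeq2 adjusted p = 0.00309 and 0.0332), a direction in which 0.0173% of all genes were called. KH.S908.3 was higher with Etr1>Bra (0.0301), as were 0.321% of all genes.

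When the replicate number entered as a block, 22 members passed the limma test (2.71% of all genes tested did). Of these, 6 were higher with Tbx6-r.b>Bra, where 0.876% of all genes tested were called in that direction. The other 16 were higher with Etr1>Bra, where 1.84% of all genes were called. The remaining 71 members tested were not called, which does not show that they responded alike. The limit of 10 bears on 4 of these calls, 1 higher under Tbx6-r.b>Bra and 3 under Etr1>Bra. Those members reached a mean of 10 only with the construct in which they were called higher. Among the 80 members with a mean of at least 10 in both constructs, 5 were called higher under Tbx6-r.b>Bra and 13 under Etr1>Bra. The rule's limits on each change against control bear on these calls too. With no filter on low counts all 102 members entered the blocked fit, and 4 and 7 were called, where 0.096% and 0.61% of 14587 genes were (0.706% in all). Blocked edgeR called 5 and 18 members, where 0.789% and 1.86% of all genes were called (2.65% in all), and 20 of the 22 were among them. Blocked DESeq2 called 2 and 3, all among the 22, where 0.0607% and 0.39% of all genes were called (0.451% in all). The blocked limma fit of the 11529 genes has 2 residual degrees of freedom per gene and takes its spread from all genes of like level. Its p-values and standard errors (SE) therefore do not use a gene's own spread between pairs.

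The blocked calls depended on the pairs of libraries. Without pair 2 no member was called (0 genes in all, limma smallest adjusted p = 0.321, with 19 of 90 members tested, or 21.1%, at an unadjusted p under 0.05, as were 15.5% of all genes). That loss took in all genes and not only the members, and its cause was not tested. The log2 difference of KH.C8.811 was −2.41 without pair 2 and −2.40 with all pairs. It was larger in size for some named members (KH.C11.41, −3.47 against −2.72) and smaller for others (KH.C5.653, 0.677 against 1.09). Without pair 1, 4 members were called higher under Tbx6-r.b>Bra and 18 under Etr1>Bra, where 0.425% and 1.33% of all genes were (1.76% in all). Without pair 3, the counts were 7 and 5, where 0.218% and 0.315% of all genes were called (0.533% in all). Of the 16 members called higher with Etr1>Bra, 15 were called without pair 1 and 5 without pair 3. Of the 6 called higher with Tbx6-r.b>Bra, 4 were called without pair 1 and 6 without pair 3.

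The direction of the members as a whole differed between pairs. In pair 1, 65 of the 102 members were higher with Tbx6-r.b>Bra than with Etr1>Bra, and in pair 2, 52 were. In pair 3 only 6 were. The median log2 difference (the Tbx6-r.b>Bra library minus its Etr1>Bra partner) stood at 0.21, 0.0187 and −1.25 in pairs 1, 2 and 3. Over all genes tested it was −0.00148, 0.00643 and −0.0174. Over all pairs the 93 members tested had a median difference of −0.23, with 63 below 0. The genes tested had a median of −0.00687, and 52.1% of them were below 0. The 79 genes already expressed in control had a median difference of −0.27, with 8 called higher under Tbx6-r.b>Bra and 23 under Etr1>Bra in the blocked fit. The lean of these members towards Etr1>Bra was thus seen in pair 3 and not in pair 1.

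**Figure D3:**
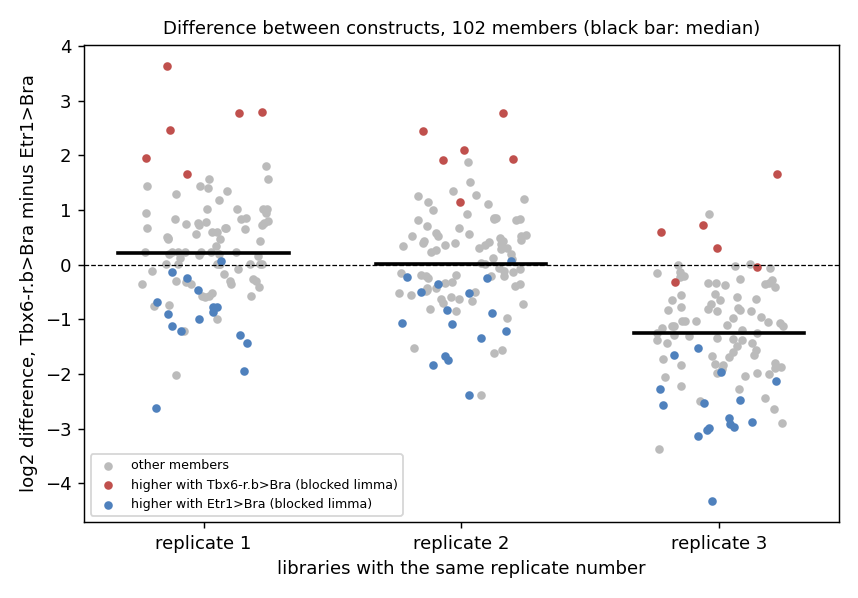
Log2 difference of each of the 102 members between the Tbx6-r.b>Bra and Etr1>Bra libraries of the same replicate number (points), with the median (black bar); colours mark the 22 members called by limma with the replicate block. The median is 0.21 in replicate 1 and −1.25 in replicate 3.

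The 6 members called higher with Tbx6-r.b>Bra were KH.C3.314, KH.S803.1, KH.C1.812, KH.C10.588, KH.C3.737 and KH.C5.653. KH.C3.314 had 24.3, 26.0 and 17.7 normalized counts with Tbx6-r.b>Bra and 1.04, 3.97 and 4.88 with Etr1>Bra, against 0, 0.935 and 0.934 in control. Few of its reads came with Etr1>Bra: it had 66 reads in Tbx6-r.b>Bra, 10 in Etr1>Bra and 2 in control. Its log2 difference was 2.58 ± 0.46, and it was higher with Tbx6-r.b>Bra in 3 of 3 pairs. Here and below, ± gives the SE of the blocked limma fit, which does not hold the gene's own spread between pairs. It met the limit of 10 and the filter on low counts only through Tbx6-r.b>Bra, so this difference is a description and its call supports nothing.

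KH.S803.1 had 69.7, 73.6 and 47.5 normalized counts in Tbx6-r.b>Bra libraries, 9.38, 9.92 and 28.3 in Etr1>Bra libraries and 3.05, 1.87 and 4.67 in control. Its log2 difference was 2.09 ± 0.30 (blocked limma adjusted p = 6.7e-10, 0.796 without the block, and 0.0132 in blocked DESeq2). KH.C1.812 had 62.3, 109 and 49.4 in Tbx6-r.b>Bra libraries, 10.4, 24.8 and 32.2 in Etr1>Bra libraries and 6.09, 3.74 and 4.67 in control. Its difference was 1.72 ± 0.27 (blocked limma adjusted p = 7.21e-08, 0.963 without the block, and 0.0354 in blocked DESeq2). In both genes the 3 Tbx6-r.b>Bra libraries lay above the 3 Etr1>Bra libraries.

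KH.C10.588, given above, had a log2 difference of 1.39 ± 0.19 (blocked limma adjusted p = 8.71e-11, and 0.412 in blocked DESeq2). By pair it was 1.95, 1.93 and 0.301. KH.C3.737 stood at 70.8, 75.8 and 68.0 normalized counts with Tbx6-r.b>Bra and at 9.38, 33.7 and 70.3 with Etr1>Bra, against 8.12, 0.935 and 1.87 in control. Its level was even among the Tbx6-r.b>Bra libraries, and Etr1>Bra replicate 3 reached it. Its difference of 1.30 ± 0.26 (blocked limma adjusted p = 6.81e-05, and 0.4997 in blocked DESeq2) was −0.0470 in pair 3. KH.C5.653 differed by 1.09 ± 0.29 (blocked limma adjusted p = 0.0107, 0.0664 in blocked edgeR and 0.99993 in blocked DESeq2) and by −0.307 in pair 3. The blocked calls of KH.C3.737 and KH.C5.653 were lost without pair 1 (limma adjusted p = 0.99996 and 0.747), and all 6 were lost without pair 2 (0.321 to 0.525).

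The 16 members called higher with Etr1>Bra had log2 differences of −2.72 to −0.96, with a median of −1.35. The 6 with the largest were KH.C11.41, KH.C8.811, KH.C4.361, KH.S908.3, KH.S489.4 and KH.L42.14. KH.C11.41, given above, differed by −2.72 ± 0.21 (blocked limma adjusted p = 3.12e-36, 0.934 without the block, and 0.106 in blocked DESeq2). By pair its difference was −2.63, −1.21 and −4.31, a spread far wider than this SE. KH.C8.811 had 14.8, 40.1 and 51.2 normalized counts in Tbx6-r.b>Bra libraries, 59.4, 214 and 385 in Etr1>Bra libraries and 2.03, 14.02 and 6.54 in control. Its difference was −2.40 ± 0.23 (blocked limma adjusted p = 4.91e-23, and 3.6e-12 in blocked DESeq2). The Etr1>Bra libraries of KH.C8.811 all lay above its Tbx6-r.b>Bra libraries, and the difference was −1.94, −2.39 and −2.88 in pairs 1, 2 and 3.

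KH.C4.361 differed by −2.06 ± 0.21 (blocked limma adjusted p = 6.11e-19, and 0.0192 in blocked DESeq2). KH.S908.3 had 11.6, 16.2 and 26.1 normalized counts in Tbx6-r.b>Bra libraries, 28.1, 60.5 and 189 in Etr1>Bra libraries and 8.12, 3.74 and 13.1 in control. It differed by −1.95 ± 0.28 (blocked limma adjusted p = 1.69e-09, and 0.00112 in blocked DESeq2). Its Tbx6-r.b>Bra libraries overlapped with control, at a pooled ratio to control of 2.21 (counting interval 1.36 to 3.67), while the ratio with Etr1>Bra was 11.3 (7.57 to 17.6).

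KH.S489.4 had 26.4, 125 and 39.1 normalized counts in Tbx6-r.b>Bra libraries, 73.0, 221 and 319 in Etr1>Bra libraries and 12.2, 9.35 and 6.54 in control. Its difference of −1.75 ± 0.21 (blocked limma adjusted p = 2.03e-13, and 0.329 in blocked DESeq2) was seen in 3 of 3 pairs, although the construct libraries overlapped. KH.L42.14 had 10.6, 11.9 and 7.45 with Tbx6-r.b>Bra and 18.8, 31.7 and 48.8 with Etr1>Bra, against 0, 0.935 and 3.74 in control. It differed by −1.56 ± 0.36, with no overlap of the construct libraries. Its deposited mean with Tbx6-r.b>Bra was 9.997, so it met the limit of 10 only through Etr1>Bra, and this difference too is a description. Its call was lost without pair 3 (limma adjusted p = 0.638) and in blocked DESeq2 (0.419). All of these 6 calls, like every other, were lost without pair 2 (limma adjusted p = 0.321).

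**Figure D4:**
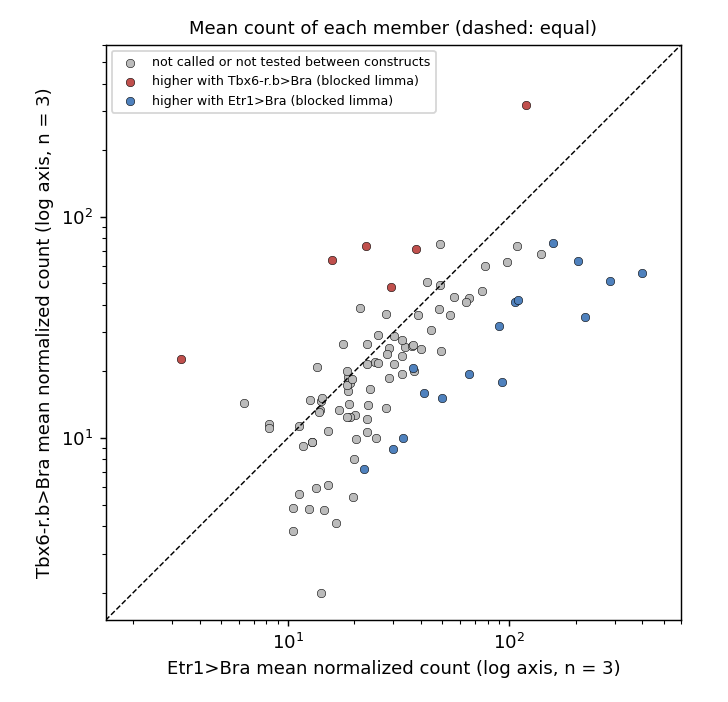
Mean normalized count of each member with Tbx6-r.b>Bra (vertical, log axis) against Etr1>Bra (horizontal, log axis), n = 3 libraries each; the dashed line marks equal means. The 6 members called higher with Tbx6-r.b>Bra in the blocked limma test lie above the line, and the 16 called higher with Etr1>Bra below it.

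Across both directions, 18 of the 22 called members had the same sign in all 3 pairs, and 10 had construct libraries that did not overlap. No share over all called genes was taken for either count. Of the 93 members tested, 5 had their Tbx6-r.b>Bra libraries all above their Etr1>Bra libraries (2.14% of genes tested did), and 8 had the reverse (2.8%). KH.C8.811, KH.S908.3, KH.C4.361, KH.S803.1 and KH.C1.812 were called by all 3 blocked tests. Over the alternatives that leave out no library, the adjusted p of KH.C8.811 ran from 4.91e-23 to 0.99998, with each value above the threshold coming from a fit without the block. Over the blocked fits that leave out no library, the range was 4.91e-23 to 0.000246 for KH.C8.811. For KH.S908.3 it was 4.22e-11 to 0.00974, and for KH.S803.1 4.54e-10 to 0.0132. In the blocked limma fit without pair 2 the adjusted p of each was 0.321.

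The IDs show where the members lie only as far as their form tells. Of the 102, 70 (68.6%) have IDs that begin with KH.C and a number from 1 to 14, as do 68.7% of all models. A further 15 (14.7%) begin with KH.L and 17 (16.7%) with KH.S, against 19.5% and 11.8% of all models. Each of the 14 KH.C numbers held at least 1 member, from 1 of 195 models under KH.C13 to 7 of 609 under KH.C10. The members were thus spread over the whole set of IDs.

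KH.S1222, picked out after its values were seen, holds 3 models, and 2 of them, KH.S1222.1 and KH.S1222.3, were members. KH.S1222.1 had 6.34, 27.1 and 12.1 normalized counts in Tbx6-r.b>Bra libraries, 11.5, 31.7 and 105 in Etr1>Bra libraries and 1.02, 0 and 0.934 in control. KH.S1222.3 had 4.23, 19.5 and 24.2 in Tbx6-r.b>Bra libraries, 10.4, 41.6 and 71.3 in Etr1>Bra libraries and 4.06, 2.80 and 3.74 in control. Both were called higher with Etr1>Bra in the blocked limma test (adjusted p = 0.00397 and 0.0130). Both calls were lost in limma without pair 3 (0.99998 and 0.709), without pair 2 (0.321 each) and with no filter (0.230 and 0.0948), and in blocked DESeq2 (0.655 and 0.567). The third model, KH.S1222.2, had a mean log2 change of 0.84 under Tbx6-r.b>Bra and 1.47 under Etr1>Bra and was not a member. Whether these are separate genes or reads shared between models cannot be told from the tables.

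The limits of the rule cut through a continuous range. The members just under the control limit were KH.C14.285 and KH.S489.4, with control means of 9.53 and 9.50, and the genes just over it were KH.C6.123 and KH.C9.534, at 10.4 and 10.5. The members nearest the construct limit, KH.S391.7 and KH.C11.364, had a highest construct mean of 10.7 and 10.8. KH.L116.84 and KH.C2.569, at 9.96 and 9.70, fell outside it. On the mean change with Etr1>Bra, KH.L22.55 and KH.C7.12 were inside at 1.01 and 1.10, and KH.C3.504 and KH.C12.154 outside at 0.994 and 0.938. On the mean change with Tbx6-r.b>Bra, KH.C11.665 and KH.C12.411 were inside at 1.001 and 1.01, and KH.S1915.2 and KH.C9.172 outside at 0.998 and 0.989. Leaving out replicate 1, 2 or 3 of every group gave 140, 107 and 95 genes, of which 90, 87 and 74 were among the 102.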

How the data were processed

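The deposited values are a signal, read counts that the authors divided by a library size factor, per the file headers. They stand in 2 tables of 15284 models, each scaled separately. The submitters' processing notes name TopHat2 2.9.8b and DESeq 1.8.1. Libraries came from a stranded mRNA kit, per the labels. Which counter, strand option and genome assembly were used is not given in the sources used here, and reads of overlapping or near-identical models may be mixed. All values (100%, tolerance 0.01) were whole multiples of the smallest in their library, which gave whole reads. Control reads did not differ between the tables (0 values). A log2 change after adding 1 understates the change of low genes. The rule, its limits and the log2 changes against control use the deposited values. All other levels and the tests use recovered reads scaled over all 9 libraries by median of ratios. A further 12 columns, of regularized log values, were not used.

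The constructs were compared with limma 3.58.1 (R 4.3.3), two-sided, with edgeR 4.0.16 and DESeq2 1.42.0 as alternatives. Each was tested on simulated data, in which all genes had the same spread and each pair effect was shared by both constructs. The members vary more than that and differ between pairs, so the simulation does not bear on their blocked calls. Libraries with the same number in their titles were taken as pairs: over 11494 genes, deviations from group means correlated at 0.475 to 0.719 between same-numbered libraries of different groups. No library was a copy of another, with a chi-square per gene between replicates of 9.67 to 29.7. Genes named were the 8 with the largest mean change, those with 0 control reads, up to 6 called in each direction between the constructs, the 4 with the most construct reads and the 2 nearest each limit on either side. Other names are marked as picked after their values were seen. The members, lists and tests were chosen with earlier results of these data known.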

Additional observations from a re-analysis of the deposited data

Results flagged for a closer look

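Blocked limma called a difference between the Tbx6-r.b>Bra and Etr1>Bra groups for the 12 members given here, those with the largest called difference in each direction. Taken as Tbx6-r.b>Bra over Etr1>Bra on the log2 scale, the difference was 2.58 for KH.C3.314, 2.09 for KH.S803.1, 1.72 for KH.C1.812, 1.39 for KH.C10.588, 1.30 for KH.C3.737 and 1.09 for KH.C5.653. It was −2.72 for KH.C11.41, −2.40 for KH.C8.811, −2.06 for KH.C4.361, −1.95 for KH.S908.3, −1.75 for KH.S489.4 and −1.56 for KH.L42.14. Without the block and with all construct libraries, limma called none of these 12. All 12 calls were lost without pair 2, where 0 genes in all were called, and blocked DESeq2 called 5 of the 12. The calls of KH.C3.737 and KH.C5.653 were also lost without pair 1, and their sign was reversed in pair 3. The call of KH.L42.14 was lost without pair 3. KH.C3.314 and KH.L42.14 met the rule's limit of 10 only with the construct in which they were higher, so their differences are tied to the choice of members. With 3 libraries a group, no test for a single outlying library was run. The counts from fits without each library or pair are given below.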

How the results depend on the processing

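Without the block, no limma or edgeR setting that kept all construct libraries called a gene. Counts below are members higher with Tbx6-r.b>Bra, members higher with Etr1>Bra and all genes. The replicate block gave 6, 16 and 313. Blocked edgeR gave 5, 18 and 306, and blocked DESeq2 2, 3 and 52, with 2, 1 and 39 from DESeq2 without the block. With the block, TMM scaling gave 6, 15 and 291, a pseudocount of 5 gave 6, 16 and 315, no filter gave 4, 7 and 103 and the fit of all 9 libraries gave 4, 5 and 133. Without each construct library in turn, the unblocked counts ran from 0 to 1, 0 to 5 and 0 to 72. Leaving out Tbx6-r.b>Bra replicate 1 gave 0, 0 and 1. Leaving out replicate 1 of Etr1>Bra gave 0, 5 and 72, and leaving out its replicate 3 gave 1, 0 and 7. Blocked counts were 4, 18 and 203 without pair 1, 0 throughout without pair 2, and 7, 5 and 61 without pair 3. The cause was not tested. The rule kept 69 to 111 genes under other pseudocounts, scaling and control limits, with 69 for a pseudocount of 5. No named difference changed sign under any alternative. With 1 to 3 control reads in 19 members, fold sizes are limited by depth.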
